A study of Homo sapiens with 4 samples.

Results

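The genes described here encode the machinery that carries proteins into mitochondria and organises the inner membrane. They were taken as the protein-coding genes whose symbols begin with TIMM or TOMM and a digit, which gave 25 genes, and 18 genes named one by one: DNAJC19, PAM16, GRPEL1, HSPA9, SAMM50, MTX1, MTX2, IMMT, CHCHD3, CHCHD4, CHCHD6, PMPCA, PMPCB, PHB (listed as PHB1 here), PHB2, AFG3L2, LONP1 and CLPP. These 43 genes were found among 60671 listed genes. RNA was sequenced from 22RV1 and PC3 cells, which are established lines of human prostate cancer, after lentiviral expression of a control short hairpin RNA (shCON) or 1 directed against DDX52, a DEAD-box RNA helicase (shDDX52). With 1 library for each of the 4 conditions, differences have no replicate check, no p-value is given, and a change with shDDX52 cannot be told apart from a change between any pair of libraries. All 4 groups carried a hairpin construct, and DDX52 was targeted by 1 hairpin sequence, so an effect of the hairpin on other transcripts cannot be told apart from that of DDX52.

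Nearly all mitochondrial proteins are encoded in the nucleus, made in the cytosol and imported. They enter through the TOM complex of the outer membrane, whose receptors bind the targeting signals and whose channel is TOMM40. From there the SAM complex inserts barrel-shaped proteins in the outer membrane, CHCHD4 and the small TIM chaperones handle proteins in the intermembrane space, the TIM22 complex inserts carrier proteins in the inner membrane, and the TIM23 complex with its HSPA9-driven motor brings proteins with a presequence into the matrix. The peptidase of PMPCA and PMPCB then removes the presequence. MICOS shapes the cristae, the prohibitins form ring assemblies in the inner membrane, and AFG3L2, LONP1 and CLPP degrade proteins there or in the matrix.

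Values are TPM, a length-corrected share of all transcripts in a library scaled to a fixed total, so genes can be compared with each other as levels. The change with shDDX52 is given as the log2 ratio, log2((TPM in shDDX52 + 1) / (TPM in shCON + 1)), for genes that reached 1 TPM with shCON or with shDDX52 in that line. The added 1 TPM understates the change of low genes. TPM does not show how many reads lie behind a value, so its counting error is unknown. With shDDX52 the targeted gene stood at 24.6% of its control in 22RV1 (log2 ratio −1.42, from 4.88 TPM) and at 22.5% in PC3 (log2 ratio −1.73, from 9.20 TPM). MYC, a transcription factor that binds CACGTG, was 169 and 147 TPM in 22RV1 and 192 and 122 TPM in PC3, shCON first. It stood at 87.0% of its control in 22RV1 (log2 ratio −0.2) and at 63.6% in PC3 (log2 ratio −0.65). The 22RV1 markers KLK2, KLK3, HOXB13, TMPRSS2 and FOLH1 were each higher in both 22RV1 libraries than in both PC3 libraries, though HOXB13 was also 39.9 and 34.1 TPM in PC3. All 6 markers of PC3 were higher in both PC3 libraries, where they summed to 864 and 979 TPM against 28.8 and 14.8 TPM in 22RV1. The 3 markers of other cells summed to 2.81 to 13.8 TPM over the 4 libraries, and each was higher in both PC3 libraries. COL1A1 was 2.81 and 4.77 TPM in 22RV1 and 8.65 and 7.84 TPM in PC3, shCON first. PECAM1 was 0.02 TPM at most in 22RV1, but 5.03 and 0.85 TPM in PC3. PTPRC was 0.39 TPM at most.

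The composition of the libraries differed between the groups. With shDDX52 the share of ribosomal RNA went from 1.21% to 0.0872% of TPM in 22RV1, but from 0.0923% to 3.13% in PC3. The share of the mitochondrial genome was 9.81% and then 13.0% in 22RV1, against 8.10% and then 10.3% in PC3. Nuclear protein-coding genes took most of the remainder, with 85.0% and 83.7% for 22RV1 and with 88.4% and 81.3% for PC3, shCON first. Recomputing TPM over nuclear protein-coding genes moved the median log2 ratio of 11945 such genes in PC3 from −0.033 to 0.084, and that of 11958 in 22RV1 from −0.075 to −0.061. Changes are therefore also given relative to these genes.

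The promoters of 39 of the 43 genes were found in a RefSeq table on GRCh38.p14 that covers 250 bases before to 50 bases after each start site. CACGTG, a palindrome and so the same on both strands, was present in 5 of the 39 (12.8%), against 8.77% of 27305 genes with a promoter in the table and 12.6% of 10479 expressed nuclear protein-coding genes. The matches are shown because the study concerns MYC, with 10 bases on each side and the motif in capitals, 5′ to 3′ on the strand of the gene.
TOMM20, chr1:235128990-235129015, minus strand: agtccgtggtCACGTGcaaattcccg
TIMM8A, chrX:101348699-101348724, minus strand: gtcgcggagaCACGTGaaggtcggtg
TIMM10, chr11:57530740-57530765, minus strand: ggaagtaaccCACGTGcttccgctgg
HSPA9, chr5:138575405-138575430, minus strand: cccctcacccCACGTGgttggaggtt
LONP1, first match, chr19:5720343-5720368, minus strand: cacagccttcCACGTGaccggaaaag
LONP1, second match, chr19:5720180-5720205, minus strand: cgccgggcgtCACGTGcgtttcgcgg
Relative to the RefSeq start site, the first base of the motif lay at position −168 in TOMM20, 28 in TIMM8A, −1 in TIMM10, −19 in HSPA9, and −212 and −49 in LONP1, with negative positions upstream. The median log2 ratio of these 5 genes was −0.26 in 22RV1 and 0.09 in PC3, and that of the 33 expressed genes without the motif was −0.11 and −0.21. A match is a description of the sequence and says nothing about binding.

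TIMM9 and TIMM17A, the genes that were at least 20% lower in both cell lines in TPM as deposited, held no CACGTG in the same windows. Their upstream sequences are shown for comparison, from 250 bases before the RefSeq start site up to the first start site in RefSeq or GENCODE 29, with matches to GGGCGG on either strand in capitals.
TIMM9, chr14:58427615-58427781, minus strand: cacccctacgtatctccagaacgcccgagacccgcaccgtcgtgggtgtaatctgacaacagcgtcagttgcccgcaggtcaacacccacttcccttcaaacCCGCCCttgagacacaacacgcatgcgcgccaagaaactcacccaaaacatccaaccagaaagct
TIMM17A, chr1:201955253-201955490, plus strand: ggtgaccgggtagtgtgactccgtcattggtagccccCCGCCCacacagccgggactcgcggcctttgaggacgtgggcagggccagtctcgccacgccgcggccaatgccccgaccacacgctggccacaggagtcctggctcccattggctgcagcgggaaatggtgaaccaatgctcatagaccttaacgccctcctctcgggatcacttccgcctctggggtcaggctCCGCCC
GGGCGG on either strand was present in 26 of the 39 promoters (66.7%), against 48.3% of all genes and 77.6% of expressed nuclear protein-coding genes. CCGGAAG on either strand was present in 16 (41.0%), against 12.2% and 22.1%, and CACGCG on either strand in 12 (30.8%), against 13.5% and 22.2%. No motif searched contains another, and matches that overlapped were counted for each motif. The median log2 ratio of the 16 genes with CCGGAAG was −0.16 in 22RV1 and −0.15 in PC3, and that of the 22 without it was −0.06 and −0.16. For CACGCG the medians were −0.07 and −0.15 with the motif, and −0.14 and −0.16 in the 26 genes without it. For GGGCGG they were −0.11 and −0.16 with the motif, and −0.15 and −0.08 in the 12 genes without it. The direction of these differences varied by motif and line, none was tested, and no such split over all genes is given here.

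The import genes were expressed at a high level in all 4 libraries. Of the 43 genes, 42 had at least 1 TPM in every library. The remaining gene, TOMM20L, a relative of the receptor TOMM20, was listed at 0 in both 22RV1 libraries and at 0.14 and 0.65 TPM in PC3, and is left out of the counts below. The median level of the 42 genes was 80.8 TPM in 22RV1 shCON, 70.0 TPM in 22RV1 shDDX52, 74.8 TPM in PC3 shCON and 64.4 TPM in PC3 shDDX52, whereas nuclear protein-coding genes with at least 1 TPM had medians of 12.4 to 13.6 TPM. Together the genes held 0.544% and 0.504% of TPM in 22RV1 and 0.467% and 0.416% in PC3. The highest was the prohibitin PHB2 in both 22RV1 libraries, at 798 and 753 TPM, and its partner PHB1 in both PC3 libraries, at 612 and 514 TPM. At the low end, TIMM23B, a near-identical copy of the TIM23 channel gene TIMM23, was 2.79 and 2.46 TPM in 22RV1 and 6.78 and 7.93 TPM in PC3. The other 41 genes had at least 10 TPM in every library.

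**Figure D1:**
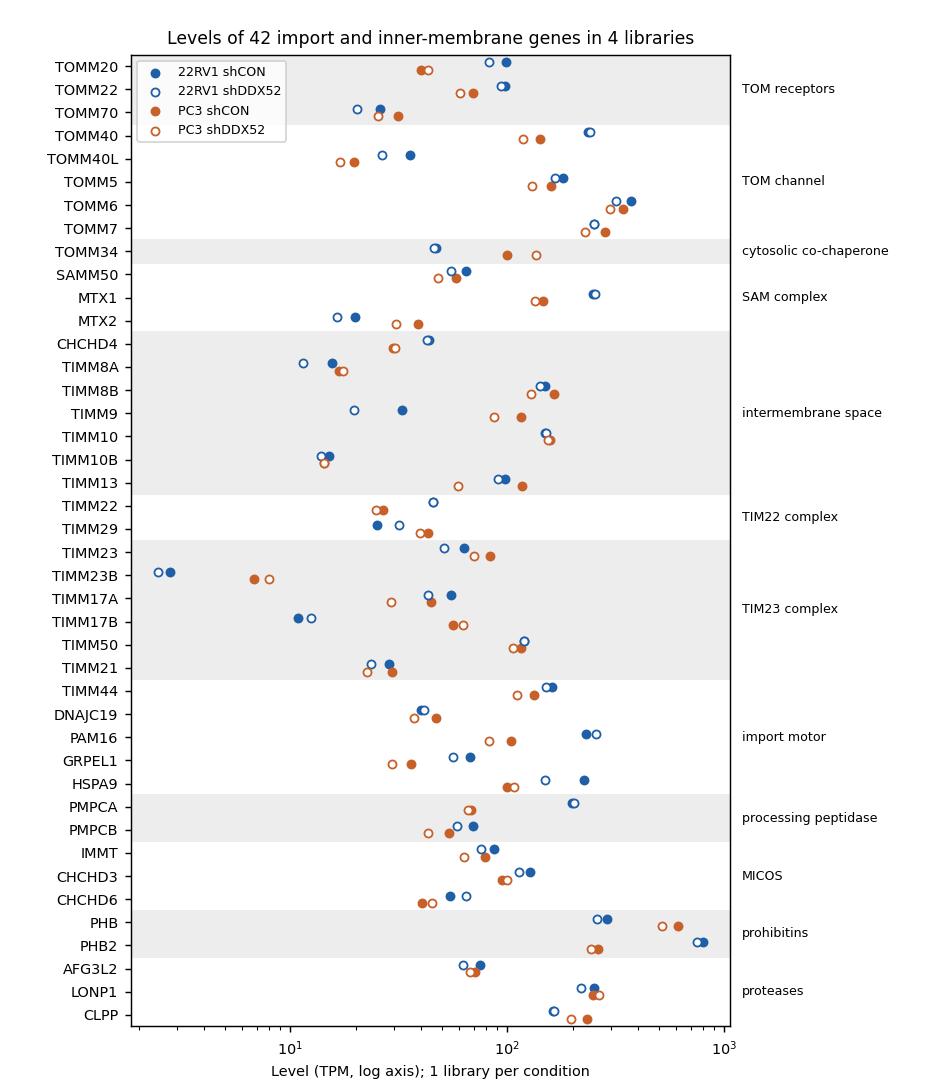
Level of 42 import and inner-membrane genes in TPM on a log axis, grouped by role, with 1 point per library (filled, shCON; open, shDDX52). All but TIMM23B lie above 10 TPM in every library, and the open points of most genes lie at or to the left of the filled ones. PHB is the gene listed as PHB1 in the text.

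With shDDX52 most import genes had a log2 ratio slightly below 0, and no gene changed by 2-fold in either cell line. In 22RV1, 31 of 42 genes had a log2 ratio below 0 (73.8%), against 58.8% of all 14438 genes and 58.1% of 6724 nuclear protein-coding genes with at least 10 TPM. Their median log2 ratio was −0.11, against −0.08 for all genes and −0.06 for the nuclear protein-coding genes, with quartiles of −0.26 and 0.00. Only 6 genes were at least 20% lower (14.3%), which is below the 22.6% of all genes and the 17.1% of the nuclear protein-coding genes: TIMM9, HSPA9, TOMM40L, TIMM8A, TOMM70 and TIMM17A. TIMM29 was the 1 gene that was at least 25% higher, against 12.7% of all genes and 8.48% of the nuclear protein-coding genes. At a 2-fold limit the count was 0 in both directions, with 2.86% of all genes lower and 2.24% higher.

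In PC3, 32 of 42 genes had a log2 ratio below 0 (76.2%), against 53.5% of all 14262 genes and 58.7% of 7070 nuclear protein-coding genes with at least 10 TPM. The median was −0.20, against −0.04 for all genes and −0.07 for the nuclear protein-coding genes. The genes at least 20% lower were TIMM13, TIMM17A, TIMM9, TIMM21, TIMM8B, PAM16, DNAJC19 and MTX2. These 8 genes (19.0%) were no larger a share than the 22.5% of all genes or the 21.0% of the nuclear protein-coding genes. TOMM34 was the 1 gene at least 25% higher, where the background was 19.7% and 13.6%. At a 2-fold limit the count was again 0, with 3.44% of all genes lower and 2.86% higher.

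The PC3 counts depended on the scaling. With the TPM scale reset to nuclear protein-coding genes, 23 of 42 genes were below 0 in PC3 (54.8%), against 40.5% of 11945 nuclear protein-coding genes, which stood at 53.4% as deposited. TIMM13 and TIMM17A were then the 2 genes at least 20% lower, with a background of 13.6%, and the median was −0.08. The 9 genes that turned from below to above 0 were AFG3L2, MTX1, PHB2, PMPCA, TIMM10, TIMM10B, TIMM22, TIMM29 and TIMM50. The distance of the import genes' median from that of the same nuclear protein-coding genes was −0.17 as deposited and −0.16 rescaled in PC3, and −0.04 under both scalings in 22RV1. With log2 ratios centred on the median of all genes, 25 of 42 genes were below 0 in 22RV1 (59.5%) and 30 in PC3 (71.4%), where centring puts all genes evenly on both sides of 0.

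**Figure D2:**
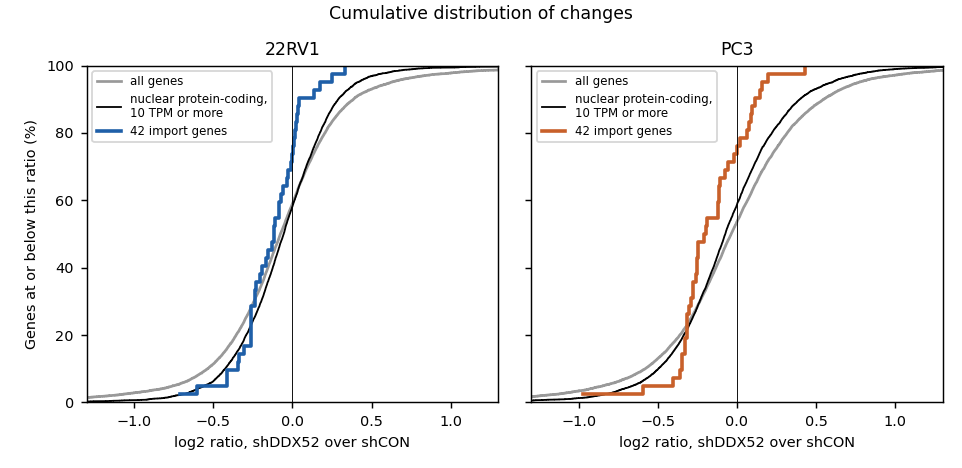
Cumulative share of genes (%) at or below each log2 ratio of shDDX52 over shCON, in 22RV1 and PC3, for 42 import genes (stepped line), all genes with at least 1 TPM and nuclear protein-coding genes with at least 10 TPM. The most extreme genes lie outside the axis. The curve of the import genes is steeper than both backgrounds, and in PC3 their median of −0.20 lies to the left of both.

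The direction of change was compared between the cell lines. In TPM as deposited, 23 of 42 genes were below 0 in both lines. The background was 32.5% of all 12175 genes that passed in both and 35.9% of the nuclear protein-coding genes with at least 10 TPM. The 23 fell to 18 both with TPM over nuclear protein-coding genes and centred on all genes. Centred on nuclear protein-coding genes at 10 TPM or more, the count was 20. No background was computed for these other scalings, so whether 18 or 20 exceeds the share of all genes is not known. As deposited, 2 genes, TIMM17B and CHCHD6, were above 0 in both, a count for which no share of all genes was computed. The other genes had ratios of differing sign as deposited, 8 of them below 0 in 22RV1 and above it in PC3, and 9 the reverse. Some of these ratios lay close to 0 in both lines, such as CHCHD4 (−0.03 and 0.02) and TIMM10 (0.01 and −0.02, 22RV1 first). The share of all genes with differing signs was not computed. TIMM9 and TIMM17A were at least 20% lower in both lines, 2 of 42 genes, a share near the background of 5.22% of all genes and 4.32% of the nuclear protein-coding genes. TIMM9 no longer passed in PC3 with TPM over nuclear protein-coding genes (log2 ratio −0.28), and TIMM17A no longer passed in 22RV1 when centred on all genes (log2 ratio −0.26). No gene was at least 25% higher in both, with a background of 2.45%. Over the 42 genes, the log2 ratios of the lines had a Pearson r of 0.17 and a Spearman rho of 0.17, given as a description, since genes within a library share its depth and composition. Over all genes rho was 0.012.

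**Figure D3:**
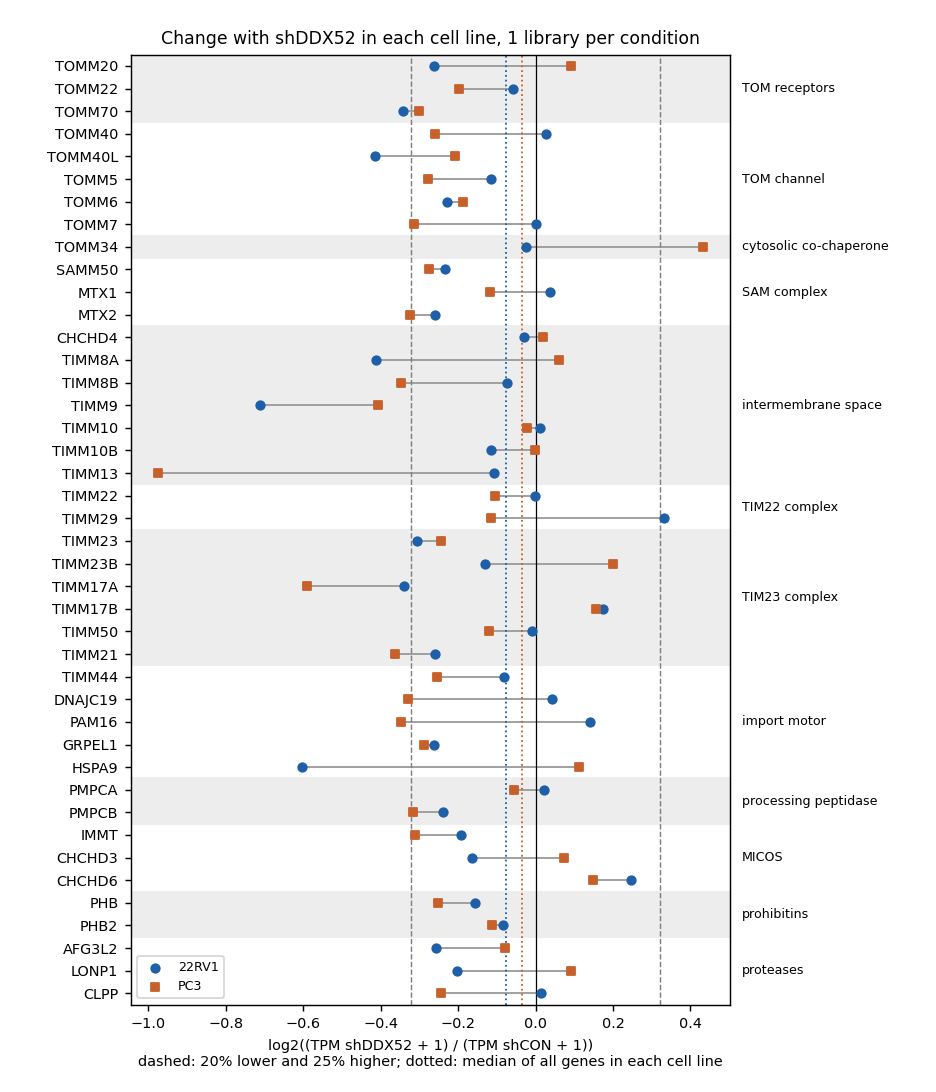
Log2 ratio of shDDX52 over shCON for 42 genes grouped by role (circle, 22RV1; square, PC3; 1 library per condition), with dashed lines at 20% lower and 25% higher and dotted lines at the median of all genes in each line. In TPM as deposited, TIMM9 and TIMM17A lie left of the lower limit in both lines, TIMM13 lies furthest left in PC3 at −0.97, and TOMM34 furthest right in PC3 at 0.43.

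In the accounts of the single genes, levels are in TPM with shCON first and shDDX52 second. Among the receptors of the TOM complex, TOMM70, which receives carrier precursors and chaperones, was 26.0 and 20.3 TPM in 22RV1 and 31.5 and 25.4 TPM in PC3, with log2 ratios of −0.34 and −0.30. TOMM20, a receptor for presequences, was 98.6 and 82.0 TPM in 22RV1 and 40.2 and 42.9 TPM in PC3, with log2 ratios of −0.26 and 0.09. TOMM22, the central receptor, was 97.8 and 93.9 TPM in 22RV1 and 69.4 and 60.4 TPM in PC3. Of these receptors as deposited, TOMM70 in 22RV1 was the 1 value past the 20% limit, and TOMM70 in PC3 stood at 80.5% of its control. Centred on all genes, TOMM70 in 22RV1 was short of the limit (log2 ratio −0.27).

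Of the 5 genes of the TOM channel, all had a log2 ratio below 0 in PC3 (53.5% of all genes did), also with TPM over nuclear protein-coding genes, and 3 in 22RV1 (58.8% of all genes). TOMM40L in 22RV1 was the 1 value at least 20% lower. TOMM40, the channel itself, was 236 and 240 TPM in 22RV1 and 141 and 118 TPM in PC3. Its relative TOMM40L was 35.7 and 26.5 TPM in 22RV1 (log2 ratio −0.42), and 19.7 and 16.9 TPM in PC3 (log2 ratio −0.21). The small subunits TOMM5, TOMM6 and TOMM7 help assemble and stabilise the channel. TOMM5 was 180 and 167 TPM in 22RV1 and 158 and 130 TPM in PC3. It overlaps AL138752.2 on the same strand, which was 8.91 and 7.99 TPM in 22RV1 and 55.4 and 27.9 TPM in PC3. How shared reads were counted is not given. TOMM6, the highest of the TOM genes, was 372 and 318 TPM in 22RV1 and 340 and 299 TPM in PC3. TOMM7 was 251 TPM in both 22RV1 libraries and 284 and 228 TPM in PC3. The summed level of the 5 channel genes changed by −6.78% in 22RV1 and by −16.0% in PC3.

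TOMM34 (ENSG00000025772, chromosome 20 from 44942130 to 44960486 in GENCODE 29 on GRCh38) carries a TOMM name but encodes a mainly cytosolic co-chaperone of Hsp70 and Hsp90. It was 47.0 and 46.2 TPM in 22RV1 (log2 ratio −0.03), and 100.01 and 135 TPM in PC3 (log2 ratio 0.43). It had the largest increase of the 42 genes in PC3, and its log2 ratio there was 0.56 with TPM over nuclear protein-coding genes.

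SAMM50, the core of the SAM complex, was 64.6 and 54.8 TPM in 22RV1 and 57.9 and 47.7 TPM in PC3, with log2 ratios of −0.23 and −0.28. The metaxins are its outer-membrane partners. MTX2 was 19.9 and 16.4 TPM in 22RV1 and 38.8 and 30.8 TPM in PC3, with log2 ratios of −0.26 and −0.33. MTX1 was 248 and 254 TPM in 22RV1 and 146 and 134 TPM in PC3. As deposited, MTX2 in PC3, at 79.3% of its control, was the 1 value of this complex past the 20% limit. It was short of the limit with TPM over nuclear protein-coding genes (log2 ratio −0.20) and centred on all genes (−0.29). MTX1 exceeded MTX2 by 12.5 times in 22RV1 shCON and 3.75 times in PC3 shCON. MTX1 was among the genes set aside in an alternative for a near-identical copy or read-through gene, so its level is uncertain.

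The intermembrane space genes held the largest decrease in each line. TIMM9 (ENSG00000100575, chromosome 14 from 58408494 to 58427614) encodes a small chaperone that forms hexamers with TIMM10 and escorts carrier proteins to TIM22. It was 32.8 and 19.6 TPM in 22RV1 (59.9% of the control, log2 ratio −0.71), and 115 and 86.8 TPM in PC3 (75.3% of the control, log2 ratio −0.41). TIMM10 was 150 and 151 TPM in 22RV1 and 157 and 155 TPM in PC3, so that the level of TIMM9 relative to TIMM10 went from 0.219 to 0.130 in 22RV1 cells, and in PC3 cells from 0.735 to 0.561. TIMM10B, a small TIM attached to TIM22, was 15.0 and 13.8 TPM in 22RV1 and 14.3 TPM in both PC3 libraries. TIMM9 overlaps KIAA0586 on the opposite strand, which was 5.56 and 4.13 TPM in 22RV1 and 9.03 and 7.12 TPM in PC3.

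TIMM13 (ENSG00000099800, chromosome 19 from 2425624 to 2427894) encodes the partner of TIMM8A in the other hexamer of this space. It was 97.4 and 90.3 TPM in 22RV1 (log2 ratio −0.11), and 117 and 59.3 TPM in PC3 (50.5% of the control, log2 ratio −0.97). TIMM13 overlaps LMNB2, a nuclear lamin gene on the same strand, which was 176 and 206 TPM in 22RV1 and 111 and 133 TPM in PC3, and how shared reads were counted is not given in the sources used here. TIMM8A was 15.6 and 11.5 TPM in 22RV1 (log2 ratio −0.41), and 16.7 and 17.5 TPM in PC3 (log2 ratio 0.06). The related TIMM8B was 149 and 142 TPM in 22RV1 and 165 and 129 TPM in PC3, with log2 ratios of −0.07 and −0.35. The level of TIMM8A relative to TIMM13 therefore went from 0.160 to 0.127 in 22RV1 cells, and in PC3 cells from 0.143 to 0.295. CHCHD4, the oxidoreductase that folds proteins of this space, was 43.6 and 42.6 TPM in 22RV1 and 29.9 and 30.3 TPM in PC3. The 7 genes together summed to 503 and 470 TPM in 22RV1 and to 615 and 492 TPM in PC3.

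In the TIM22 complex, TIMM22, the carrier translocase, was 45.6 TPM in both 22RV1 libraries and 26.8 and 24.9 TPM in PC3. TIMM29 (ENSG00000142444, chromosome 19 from 10928733 to 10933535), a subunit that stabilises it, was 25.1 and 31.8 TPM in 22RV1 (log2 ratio 0.33), and 42.98 and 39.6 TPM in PC3 (log2 ratio −0.11). The PC3 value of TIMM29 turned to 0.01 with TPM over nuclear protein-coding genes.

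The TIM23 complex contained TIMM17A (ENSG00000134375, chromosome 1 from 201955491 to 201970661), which was 54.8 and 43.1 TPM in 22RV1 and 44.4 and 29.2 TPM in PC3, with log2 ratios of −0.34 and −0.59. Its paralogue TIMM17B (ENSG00000126768, chromosome X from 48893447 to 48898143) was 10.9 and 12.4 TPM in 22RV1 and 56.0 and 62.5 TPM in PC3, with log2 ratios of 0.17 and 0.16. Both encode alternative partners of the TIMM23 channel. With shDDX52 the level of TIMM17A relative to TIMM17B went from 5.03 to 3.47 in 22RV1 cells, and in PC3 cells from 0.794 to 0.467, and this ratio does not depend on the scaling of a library. TIMM17B overlaps PQBP1 on the opposite strand, which was 171 and 178 TPM in 22RV1 and 89.4 and 78.7 TPM in PC3.

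TIMM23 was 63.2 and 51.0 TPM in 22RV1 and 82.9 and 69.9 TPM in PC3, with log2 ratios of −0.31 and −0.24, and its split with TIMM23B is uncertain because the copies can share reads. TIMM21, which links TIM23 to the TOM complex and the respiratory chain, was 28.5 and 23.6 TPM in 22RV1 and 29.4 and 22.6 TPM in PC3, with log2 ratios of −0.26 and −0.36. TIMM50, the presequence receptor of TIM23, was 120 and 119 TPM in 22RV1 and 115 and 106 TPM in PC3. Of the 6 TIM23 genes as deposited, TIMM17A passed the 20% limit in both lines and TIMM21 in PC3, at 77.0% of its control. TIMM21 in PC3 was short of it with TPM over nuclear protein-coding genes (log2 ratio −0.24). Centred on all genes, TIMM17A in 22RV1 was short of it (−0.26).

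In the import motor, HSPA9 (ENSG00000113013, chromosome 5 from 138553756 to 138575724) encodes mortalin, the mitochondrial Hsp70 that pulls proteins into the matrix. It was 227 and 149 TPM in 22RV1 (65.7% of the control, log2 ratio −0.60), and 99.6 and 108 TPM in PC3 (log2 ratio 0.11). GRPEL1, its nucleotide exchange factor, was 67.3 and 55.9 TPM in 22RV1 and 35.97 and 29.3 TPM in PC3, with log2 ratios of −0.26 and −0.29. The level of HSPA9 relative to GRPEL1 accordingly went from 3.37 to 2.67 in 22RV1 cells, and in PC3 cells from 2.77 to 3.68. TIMM44, which tethers HSPA9 to the channel, was 160 and 151 TPM in 22RV1 and 133 and 111 TPM in PC3.

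DNAJC19, a J-protein of the inner membrane, was 40.1 and 41.3 TPM in 22RV1 and 46.7 and 37.0 TPM in PC3, with log2 ratios of 0.04 and −0.33. PAM16, a J-like regulator of the motor, was 232 and 256 TPM in 22RV1 and 104 and 81.9 TPM in PC3, with log2 ratios of 0.14 and −0.35. PAM16 shares its strand and position with CORO7 and with the read-through gene CORO7-PAM16, so its level is uncertain: CORO7 was 19.98 and 21.7 TPM in 22RV1 and 7.04 and 13.96 TPM in PC3. DNAJC19 and PAM16 passed the 20% limit in PC3 as deposited, but neither did with TPM over nuclear protein-coding genes, at −0.20 and −0.22.

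In the processing peptidase, the alpha subunit PMPCA was close to its control, at 199.8 and 203 TPM in 22RV1 and 68.4 and 65.7 TPM in PC3. The catalytic beta subunit PMPCB was 69.3 and 58.6 TPM in 22RV1 and 53.9 and 43.1 TPM in PC3, with log2 ratios of −0.24 and −0.32. The level of PMPCA relative to PMPCB went from 2.88 to 3.46 in 22RV1 cells, and in PC3 cells from 1.27 to 1.52.

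In MICOS, IMMT (mitofilin), its core subunit, was 86.5 and 75.6 TPM in 22RV1 and 78.6 and 63.1 TPM in PC3, with log2 ratios of −0.19 and −0.31. CHCHD3 was 127 and 114 TPM in 22RV1 and 94.3 and 99.3 TPM in PC3. CHCHD6 was 54.2 and 64.5 TPM in 22RV1 and 40.6 and 45.1 TPM in PC3, with log2 ratios of 0.25 and 0.15. IMMT and CHCHD6 had log2 ratios of opposite sign in each line, and no MICOS gene passed a limit.

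The prohibitins PHB1 and PHB2 alternate in ring assemblies. PHB1 was 289 and 260 TPM in 22RV1 and 612 and 514 TPM in PC3, with log2 ratios of −0.16 and −0.25. PHB2 was 798 and 753 TPM in 22RV1 and 263 and 243 TPM in PC3, with log2 ratios of −0.08 and −0.11. Neither passed the 20% limit, and PHB2 turned to above 0 in PC3 with TPM over nuclear protein-coding genes.

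Among the proteases, AFG3L2, a subunit of the m-AAA protease, was 75.2 and 62.7 TPM in 22RV1 and 71.0 and 67.2 TPM in PC3, with log2 ratios of −0.26 and −0.08. LONP1, a matrix protease, was 252 and 219 TPM in 22RV1 and 250 and 266 TPM in PC3, with log2 ratios of −0.20 and 0.09. CLPP, the proteolytic subunit of the ClpXP protease, was 163 and 165 TPM in 22RV1 and 232 and 196 TPM in PC3, with log2 ratios of 0.02 and −0.24. LONP1 overlaps RPL36 on the opposite strand, a ribosomal protein gene at 2123 to 2482 TPM in the 4 libraries. None of the 3 proteases passed a limit in either line.

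Summed over all 43 genes, the level went from 5370 to 4995 TPM in 22RV1, a change of −6.98%, and from 4630 to 4093 TPM in PC3, a change of −11.6%. Without HSPA9 the changes were −5.78% and −12.0%, and without both prohibitins −7.02% and −11.1%. On a log2 scale the PC3 sum was −0.05 with TPM over nuclear protein-coding genes, against −0.18 as deposited. By role, the TIM22 sum was the only one above its control in 22RV1, at 9.45%, and TOMM34 alone in PC3, at 35.3%.

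**Figure D4:**
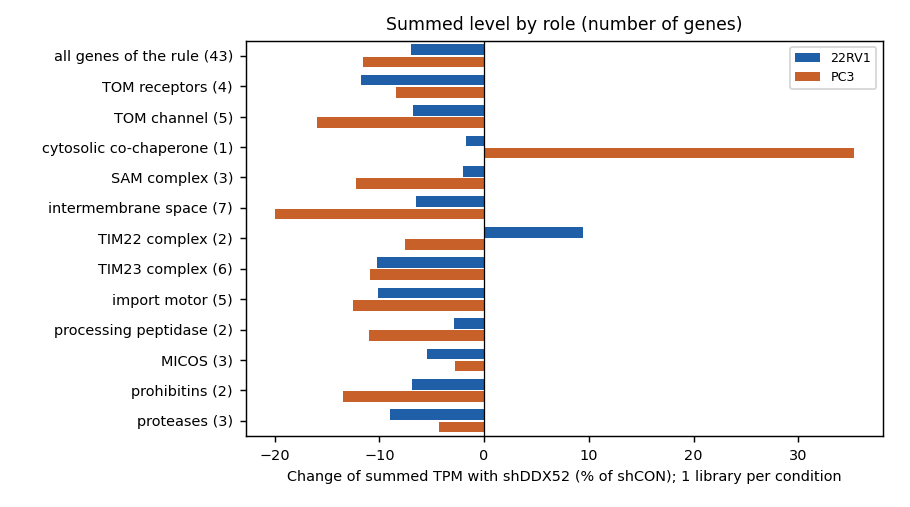
Change of the summed TPM with shDDX52, in % of shCON, for all genes of the list and for each role, with the number of genes in parentheses (1 library per condition, no error bars). The longest bars to the left are the intermembrane space genes in PC3 (615 to 492 TPM), followed by the TOM channel in PC3 at −16.0%.

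The control libraries addressed how the lines differed before DDX52 was targeted, with 1 library per line. The levels ranked alike, with a Spearman rho of 0.84 over the 42 genes, given as a description. Relative to 22RV1 shCON, 5 genes were at least 2-fold higher in PC3 shCON, against 19.9% of all genes, and 5 were at least 2-fold lower, against 21.3%. The higher genes were TIMM17B (10.9 against 56.0 TPM, 22RV1 first), TIMM9 (32.8 against 115 TPM), PHB1 (289 against 612 TPM), TOMM34 (47.0 against 100.01 TPM) and TIMM23B (2.79 against 6.78 TPM). The lower genes were PHB2 (798 against 263 TPM), PMPCA (199.8 against 68.4 TPM), TOMM20 (98.6 against 40.2 TPM), HSPA9 (227 against 99.6 TPM) and PAM16 (232 against 104 TPM). Partners in 1 complex could differ in opposite directions. The level of PHB2 relative to PHB1 was 2.76 in 22RV1 shCON and 0.429 in PC3 shCON, and 2.90 and 0.472 in the shDDX52 libraries. TIMM17A exceeded TIMM17B 5.03 times in 22RV1 shCON and was below it in PC3 shCON, at 0.794.

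**Figure D5:**
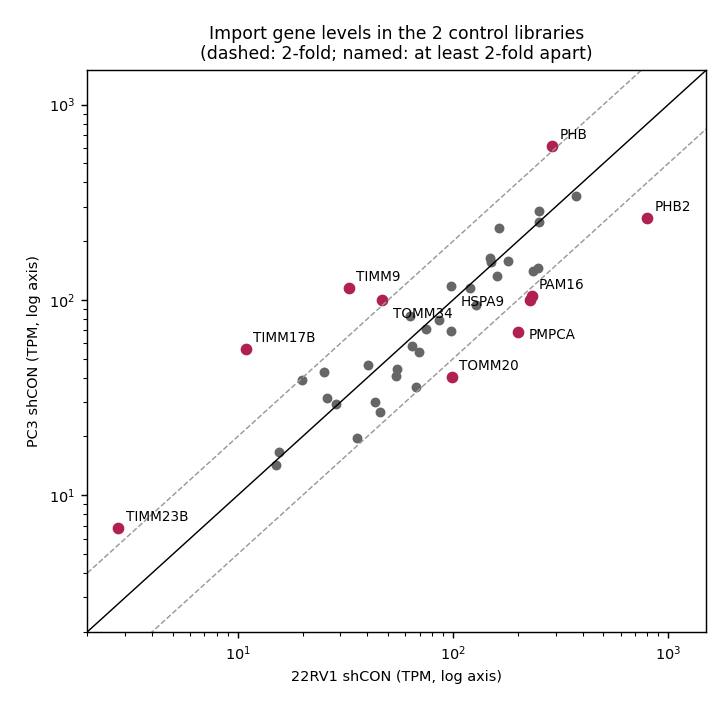
Level of each of 42 genes in 22RV1 shCON (x axis) and PC3 shCON (y axis), in TPM on log axes, with a solid line at equal levels and dashed lines at 2-fold. The 10 named genes lie at least 2-fold apart after adding 1 TPM, among them PHB1 (marked PHB) above and PHB2 below the line.

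Other genes of the pathway were taken from a fixed list of 37 genes for further import factors, MICOS subunits, chaperones and quality-control proteases. In 22RV1, 36 passed the filter, 10 were at least 20% lower (27.8%, against 22.6% of all genes) and 0 at least 25% higher (12.7% of all genes), with a median log2 ratio of −0.15. The lower genes were TIMMDC1, GRPEL2, HSCB, OPA1, YME1L1, HSPD1, HSPE1, MICOS10, DNAJA3 and IMMP2L, and centred on all genes 5 of the list passed. In PC3, all 37 passed, 5 were at least 20% lower (13.5%, against 22.5% of all genes) and 2 at least 25% higher (5.41%, against 19.7%), with a median of −0.10 that turned to 0.02 with TPM over nuclear protein-coding genes. By log2 ratio, XPNPEP3, a mitochondrial aminopeptidase that trims imported proteins, was the 1 gene of the list past 1.5-fold. It was 5.52 and 4.82 TPM in 22RV1 and 11.8 and 6.90 TPM in PC3 (log2 ratio −0.69). GRPEL2 in 22RV1 stood at 65.1% of its control, from 5.79 to 3.77 TPM, but at a log2 ratio of −0.51 after adding 1 TPM. The genes other than XPNPEP3 past the limits, in either line, were named after their values were seen. In PC3 they were HSCB, HSPE1, YME1L1 and CHCHD10 on the lower side and IMMP2L and MFN2 on the higher side. HSPE1, the co-chaperonin of HSPD1 in protein folding, was 801 and 611 TPM in 22RV1 and 678 and 501 TPM in PC3. YME1L1, the i-AAA protease, was 28.0 and 20.9 TPM in 22RV1 and 24.7 and 17.4 TPM in PC3. HSCB, an iron-sulfur cluster co-chaperone, was 22.8 and 15.8 TPM in 22RV1 and 29.3 and 21.15 TPM in PC3. These 3 of the 36 listed genes that passed in both lines were at least 20% lower in both, where 5.22% of all genes that passed in both were. HSCB and YME1L1 remained so under both other scalings, for which no share of all genes was computed. IMMP2L, an inner-membrane peptidase, was 21.2 and 16.7 TPM in 22RV1 and 8.69 and 12.7 TPM in PC3, past the lower limit in 22RV1 and past the higher one in PC3. TIMMDC1, a complex I assembly factor related to the TIM23 channel, was 114 and 76.4 TPM in 22RV1 and 139 and 115 TPM in PC3.

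Other mitochondrial gene families gave the setting of these changes. The 78 mitochondrial ribosomal protein genes had a median log2 ratio of −0.13 for 22RV1 and −0.29 for PC3. Of the 90 nuclear-encoded oxidative phosphorylation genes, 82 passed the filter in each line, with medians of −0.09 and −0.24. The import genes, at −0.11 and −0.20, lay between these families in 22RV1 and nearer to 0 than either in PC3. In PC3 42.3% of the ribosomal protein genes and 34.1% of the oxidative phosphorylation genes were at least 20% lower, against 19.0% of the import genes and 22.5% of all genes. The 13 protein-coding genes of the mitochondrial genome had medians of 0.43 and 0.16, with 0 of them below 0 in 22RV1 and 3 in PC3, and their summed level changed by 33.2% in 22RV1 and 26.3% in PC3. The part of library composition in these values was not tested.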

How the data were processed

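The authors sequenced total RNA from 22RV1 and PC3 cells with shCON or shDDX52, 1 library per condition, prepared with a TruSeq kit, and deposited TPM for each Ensembl gene. The submitters' processing notes name CASAVA, HISAT2 and hg19. The quantification program, annotation release, strand setting and filters are not given in the sources used here. Labels gave the cell line and the hairpin.

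Of 60671 identifiers, 42020 had a symbol, and GENCODE 29 on GRCh38 listed 58453 and gave types and positions, which do not refer to the deposited values. Log2 ratios used a pseudocount of 1 TPM, and a gene was used in a line when it reached 1 TPM there with either hairpin. Limits were 20% lower, 25% higher and 2-fold, applied to these log2 ratios and not to the percentages of control. Every gene of the rule was described, and 23 entries with matching symbols that are not protein-coding were left out. Related genes were named when past 1.5-fold, and the others past 20% or 25% after their values were seen. The genes and lists were chosen with earlier results of these data known, and the motifs CCGGAAG and GGGCGG and the background at 10 TPM were added after values were seen. TPM keeps no depth, so no count model, interval or p-value was computed, and the cell lines were not used as replicates of each other. Alternatives covered the pseudocount, filter, scaling and members. The calculation of list medians was checked by putting known shifts into the TPM values of randomly picked genes, which tests no result given here. Software comprised Python 3.11.15 with numpy 2.4.6, pandas 2.3.3, scipy 1.17.1 and matplotlib 3.10.9. Some cell line markers that were measured are not reported here.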

Additional observations from a re-analysis of the deposited data

Results flagged for a closer look

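A total of 6 import genes passed the 20% or 25% limit in 1 cell line and had a log2 ratio of the opposite sign in the other. In that other line the ratio was small. It was 0.11 for HSPA9, 0.06 for TIMM8A and −0.11 for TIMM29 in PC3. In 22RV1 it was −0.03 for TOMM34, 0.04 for DNAJC19 and 0.14 for PAM16. The share of all genes that met this rule was not computed. With 1 library per condition, the differences between the lines were not tested. The log2 ratio in PC3 minus that in 22RV1 was 0.715 for HSPA9, 0.474 for TIMM8A and 0.457 for TOMM34. It was −0.445 for TIMM29, −0.371 for DNAJC19 and −0.487 for PAM16, whose level is uncertain because of its read-through gene. With TPM over nuclear protein-coding genes, the PC3 log2 ratio of TIMM29 was 0.01, so that its signs no longer differed, and those of DNAJC19 (−0.20) and PAM16 (−0.22) no longer passed the 20% limit. Centred on all genes, TOMM34 in 22RV1 turned to 0.05, and DNAJC19 (−0.29) and PAM16 (−0.31) in PC3 were again short of the limit. HSPA9 and TIMM8A kept opposite signs and passed the 20% limit in 22RV1 under both scalings.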

How the results depend on the processing

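No paired analysis was possible because within a cell line each hairpin had a single library. A fit that pairs the hairpins across the cell lines would leave 1 residual degree of freedom, would take the lines as replicates, and was not run. Of the values that answer a comparison, 112 moved by less than 0.1 on the log2 scale or stayed within 1.5 times as counts, 14 moved further and 1 turned its sign. With a pseudocount of 0.1, the DDX52 log2 ratio was −1.94 for 22RV1 and −2.10 for PC3, where the smaller pseudocount itself gives the change. Without a filter, 2 genes were at least 25% higher in PC3, TOMM34 and TOMM20L. With TPM over nuclear protein-coding genes, the PC3 medians were −0.078 for the import genes, −0.16 for mitochondrial ribosomal proteins and −0.11 for oxidative phosphorylation genes, that of the related genes turned to 0.023, the log2 ratio of the summed TPM was −0.048, 2 genes were at least 20% lower in PC3 (13.7% of the genes then tested) and 1, TIMM17A, in both lines. Centred on all genes, 2 were at least 25% higher in 22RV1 (17.0% of all genes), 4 at least 20% lower in PC3 (20.2%) and 1, TIMM9, in both lines. Centred on nuclear protein-coding genes at 10 TPM or more, which was added after seeing the data, 3 were at least 20% lower in PC3 (18.0% of all genes) and 1 in both lines. Thus neither TIMM9 nor TIMM17A passed in both lines under every scaling. Of the single-gene values, 210 moved by less than 0.1 and 42 further. The 42 were the PC3 ratios with TPM over nuclear protein-coding genes. A change of scaling shifts all genes of a line by nearly the same amount, so these counts do not describe single genes.

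Limits are the single library per condition, the missing depth, and the unstated counting of reads shared by overlapping or near-identical genes. This counting touches TIMM13, PAM16, TIMM17B, TIMM23, SAMM50, TOMM5, MTX1, LONP1, TIMM8B and TIMM10B, among others.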
